A study of Homo sapiens and Mus musculus with 92 samples.

Results

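Control HEL cells were sequenced separately for the 2 knockdown (KD) experiments of the study, and their 5 RNA-seq libraries were compared with each other here. They are 5 of the 92 samples of the series, taken by their titles and by the count table that holds them, so no measured value chose them. The 2 AF9-experiment controls accompany cells in which AF9 (encoded by MLLT3) was knocked down, and the 3 MLL1-experiment controls accompany cells in which MLL1 (encoded by KMT2A) was knocked down. All 5 are labelled WT for genotype and human erythroblast for cell type, and neither labels nor methods give a time of harvest for each library. The methods of the study name a control plasmid in the lentiviral pLKO.1 vector and the addition of puromycin after transduction, while the labels do not say whether these libraries came from cells treated in that way. No label states that libraries of a group came from separate cultures, so p values measure the spread between libraries, which may be technical.

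The labels describe poly(A) selection, dUTP strand marking, 2 RNA extraction kits and 3 models of sequencer for all libraries without assigning a kit or a sequencer to any of them. The tables nonetheless differed in classes of RNA that poly(A) selection depletes. Histone genes, most of whose messages lack a poly(A) tail, took 0.244% and 0.246% of all counts in the AF9-experiment controls and 0.883%, 1.38% and 1.51% in the MLL1-experiment controls. Small noncoding RNA genes took 0.0903% and 0.135% against 1.39%, 3.23% and 3.48%. Both classes (98 histone genes and 2541 small noncoding RNA genes) were left out of library sizes and of every comparison below. Experiment, RNA selection, RNA kit, sequencer, culture of the cells and the counting of reads that match several genes cannot be told apart in any difference between the groups, since the sources used here give none of them for single libraries.

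HEL is an established line of human erythroleukemia cells. Such cells carry features of red cell precursors, megakaryocytes and myeloid cells at the same time, make fetal rather than adult hemoglobin, depend on an activated JAK2 kinase and can shift along either lineage under inducing agents. GATA1, TAL1 and KLF1 are transcription factors that direct the red cell program, GATA2 is more active in progenitors and mast cells, and MLL1 and AF9 belong to a histone methyltransferase complex and to the super elongation complex (SEC), respectively.

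All 15 markers fixed for HEL cells passed the filter on low values. TAL1, which directs early blood development, was measured at 527 and 509 CPM (counts scaled to library size with TMM factors) in the AF9-experiment controls and at 434, 516 and 508 CPM in the MLL1-experiment controls. JAK2 was measured at 539 and 510 CPM against 356, 499 and 494 CPM, and CD33, a myeloid surface protein, at 122 and 114 CPM against 128, 103 and 105 CPM. None of these 3 genes was called different between the groups by the test described below. Of all 15 markers, 5 were called higher and 2 lower in the AF9-experiment controls, against 29.2% and 29.4% of all genes tested. Among the 15 are HBG1 and HBG2, which encode gamma chains of fetal hemoglobin. HBG1 was measured at 3290 and 3352 CPM against 74.1, 53.1 and 55.5 CPM. HBG2 was measured at 5175 and 5163 CPM against 393, 250 and 272 CPM. These 2 genes make up most of the difference between the groups in the sum of the 15. The 15 summed to between 1.27e+04 and 1.28e+04 CPM in the AF9-experiment controls and to between 3.76e+03 and 3.88e+03 CPM in the MLL1-experiment controls. Of the T cell, B cell, monocyte, fibroblast and endothelial markers, 4 of 5, 3 of 4, 4 of 4, 5 of 6 and 0 of 3 stayed at or below 1 CPM in every AF9-experiment control, and 4 of 5, 3 of 4, 3 of 4, 4 of 6 and 0 of 3 did in every MLL1-experiment control. FCGR3A, LUM and PAX2 (a marker of the kidney-derived cells used to package lentivirus) had no count in any control library. Markers of these packaging cells summed to between 6.68 and 7.31 CPM in the AF9-experiment controls and to between 5.84 and 7.85 CPM in the MLL1-experiment controls. Of these 5 markers, 4 stayed at or below 1 CPM in every AF9-experiment control and 2 in every MLL1-experiment control. Epithelial markers summed to between 58.3 and 59.7 CPM against 60.3 and 68.2 CPM, and 2 of 5 against 3 of 5 stayed at or below 1 CPM. Of these, EPCAM was called higher, at 2.57 and 3.47 CPM against 0.127, 0.136 and 0.125 CPM. On the B cell, monocyte and fibroblast lists 1 gene each was called lower. The endothelial list summed to between 173 and 220 CPM against 127 and 136 CPM, and 2 of its 3 genes were called higher in the former.

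Total counts were 14232408 and 12278989 in the AF9-experiment controls and between 7107257 and 7950659 in the MLL1-experiment controls, with 16415 to 16921 genes counted at least once. Over the 13654 genes tested, the root mean square difference of log2 CPM was 0.290 between the AF9-experiment controls and 0.372 between MLL1-experiment control replicates 2 and 3. MLL1-experiment control replicate 1 stood apart from both of its fellows, at 0.622 and 0.617. Between the experiments the 6 pairs of libraries differed by 1.40 to 1.497. The chi-square per degree of freedom of the counts was 3.98 between the AF9-experiment controls, 2.07 between replicates 2 and 3 of the other group, 22.4 and 23.6 for its replicate 1 against these, and 165 to 205 between experiments, so no pair of replicates agreed within sampling noise. The first principal component held 87.6% of the variance and separated the experiments, and the second held 8.37% and separated MLL1-experiment control replicate 1 from the rest.

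**Figure D1:**
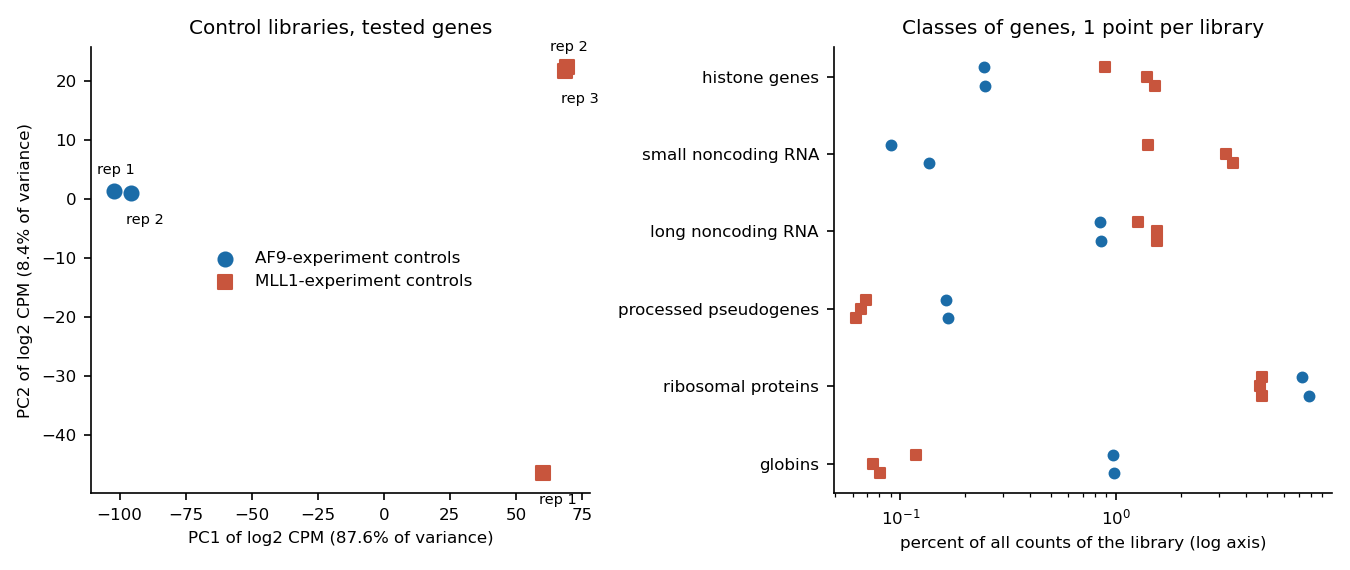
Left, the 5 control libraries on the first and second principal components of log2 CPM. The AF9-experiment controls (circles) lie together at the left and the MLL1-experiment controls (squares) at the right, with replicate 1 of the latter at the bottom. Right, percent of a library's counts in 6 classes of genes on a log axis, 1 point per library; the groups do not overlap in any class shown.

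A gene was called when its fold change was at least 1.5 and its adjusted p value under 0.05 in edgeR's quasi-likelihood test. Of the 13654 genes tested, 8000 (58.6%) were called, with 3981 (29.2%) higher and 4019 (29.4%) lower in the AF9-experiment controls than in the MLL1-experiment controls. At 4-fold or more, 718 (5.26%) were higher and 1311 (9.6%) lower. In 10804 genes (79.1%) all libraries of one group lay on one side of all libraries of the other, the AF9-experiment controls being above in 40.3% and below in 38.8%. Lists of genes are read below against these shares, since a list with 29.2% of its members higher and 29.4% lower would match all genes. Scaling by total counts in place of TMM factors lowered the median log2 difference of all genes from -0.00457 to -0.225 and gave 3121 higher and 4790 lower, so that 39.5% of the called genes were higher, against 49.8% with TMM factors.

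The difference moved with GC content. Among the 6697 tested protein-coding genes of which at most 1% of the 31-base stretches also occur in transcripts of another gene, 27.2% were called higher and 31.1% lower. Ordered by GC content in 5 bins of equal size, the lowest bin, from 31% to 41.1%, had 54.1% higher and 7.76% lower, with a median log2 difference of 0.73. The highest bin, from 59.1% to 75.6%, had 3.29% higher and 67.7% lower, with a median of -1.26. Spearman's rho between GC content and log2 difference was -0.55 across these genes, which are not independent and share the 5 libraries. With offsets that take out each library's trend with GC content, 5332 of the 8000 calls stood in the same direction, 34 were called in the opposite direction and 2634 were not called. The value with GC content offsets is therefore given below where it ended the call of a named gene or moved the count of a list by more than 1.5-fold. The part of GC content in any difference of a single gene was not tested. After the same offsets, the median difference by chromosome lay between -0.17 on chromosome 18 and 0.31 on chromosome 22.

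**Figure D2:**
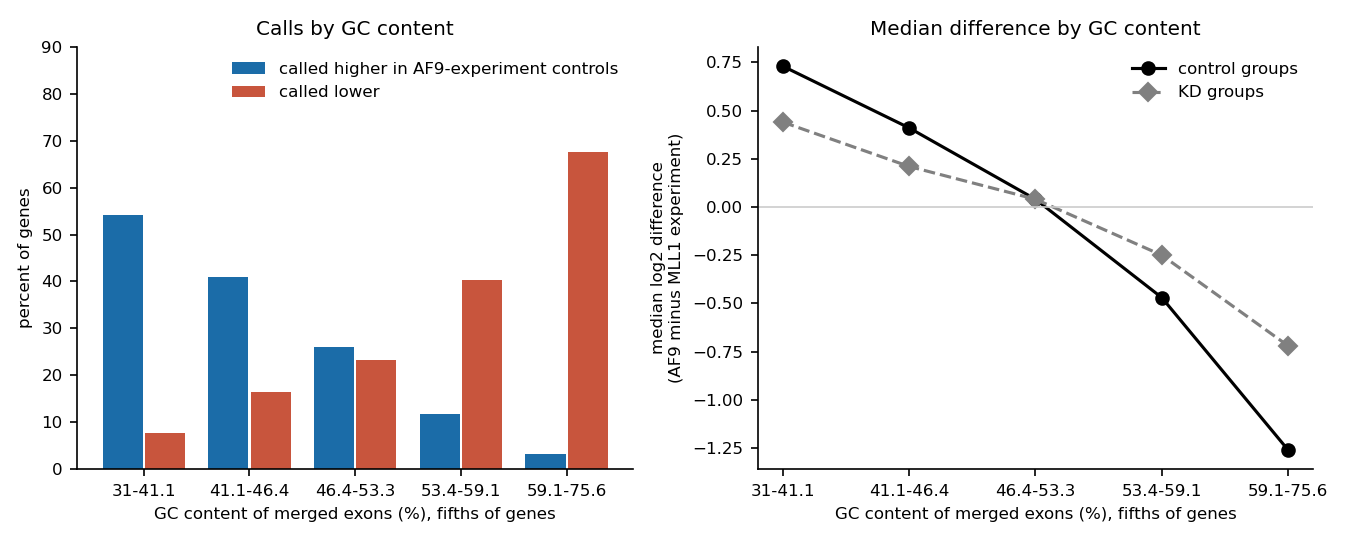
Left, percent of protein-coding genes with few shared stretches that were called higher (blue) or lower (red) in the AF9-experiment controls, in 5 bins of equal size by GC content of their merged exons. Right, the median log2 difference of the same genes between the control groups (solid line) and between the KD groups (dashed line); both fall from the lowest to the highest bin, in the controls from 0.73 to -1.26.

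The largest differences were mostly of processed pseudogenes and other genes that resemble a parent gene elsewhere. By the fixed ranking, the 12 largest were MTRNR2L8, MTRNR2L2, RPL23P8, NACA4P, UQCRBP1, EIF5AL1, MTRNR2L9, RAB6C, TPI1P3, ATP8B5P, HMGN2P46 and NACA2, and all 12 had no count in any MLL1-experiment control. EIF5AL1 is an intronless relative of EIF5A, a translation factor, and was measured at 46.6 and 45.3 CPM in the AF9-experiment controls, at least 119-fold above the level of 3 counts per library in the other group. RPL23P8, a processed pseudogene of a ribosomal protein gene, was measured at 81.3 and 89.3 CPM, at least 220-fold above it. The coding sequence of EIF5AL1 differs from that of EIF5A at 5 of 465 bases and holds a run of 192 bases without a difference. Coding bases 91 to 150 of both (EIF5A at chr17:7309726-7309785 and EIF5AL1 at chr10:79512740-79512799 of hg38, plus strand, in exons) are shown because they hold most of the differences, which are in capitals.
EIF5A: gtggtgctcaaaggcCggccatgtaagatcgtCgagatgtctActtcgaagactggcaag
EIF5AL1: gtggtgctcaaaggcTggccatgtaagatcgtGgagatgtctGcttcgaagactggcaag
A read that lies wholly between capitals matches both genes. Of 138 processed pseudogenes with at least 10 counts in the 5 libraries, 46 had at most 3 counts in every MLL1-experiment control only and 16 in every AF9-experiment control only. Processed pseudogenes took 0.163% and 0.166% of counts against 0.0696%, 0.0655% and 0.0624%. The 6 MTRNR2L genes with at least 10 counts, which resemble the mitochondrial large ribosomal RNA, had no more than 3 counts in each MLL1-experiment control.

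Transcripts named after introns and many other long noncoding RNAs were lower in the AF9-experiment controls. Of 29 intronic transcripts with at least 10 counts, 28 had the higher mean in the MLL1-experiment controls, and 24 of the 26 tested (92.3%, against 29.4% of all genes) were called lower. SND1-IT1 was measured at 0.0778 and 0 CPM against 11.9, 8.42 and 9.85 CPM. Of 779 long noncoding RNA genes tested, 77 (9.88%) were higher and 367 (47.1%) lower. MALAT1, an abundant nuclear RNA, was measured at 86.9 and 103 CPM against 3042, 4034 and 4137 CPM, 39.5-fold lower (log2 difference -5.30 ± 0.20 (SE), adjusted p = 7.8e-06). KCNQ1OT1, an imprinted antisense transcript, was measured at 25.9 and 30.9 CPM against 592, 467 and 443 CPM. On the list of long noncoding RNAs and snoRNA host genes 12 of 31 were higher and 7 lower, and both with GC content offsets and with total counts 9 were higher and 10 lower. SNHG5, a snoRNA host gene, was measured at 463 and 455 CPM against 52.96, 49.7 and 55.9 CPM.

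The fetal and embryonic globins of the beta cluster were among the most strongly different products of red cells. HBG2, which encodes a gamma chain of fetal hemoglobin, was measured at 5175 and 5163 CPM in the AF9-experiment controls and at 393, 250 and 272 CPM in the MLL1-experiment controls, 16.9-fold higher in the former (log2 difference 4.08 ± 0.19 (SE), adjusted p = 1.26e-05). HBG1, which encodes the other gamma chain, was measured at 3290 and 3352 CPM against 74.1, 53.1 and 55.5 CPM. HBE1, the embryonic epsilon chain, was measured at 2062 and 1885 CPM against 125, 70.1 and 83.2 CPM. The groups lay far apart for all 3 genes, with MLL1-experiment control replicate 1 the highest of its group.

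How reads were split between the gamma genes is uncertain, because 94.3% of the 31-base stretches of HBG1 and 82.5% of those of HBG2 occur in transcripts of another gene. Of the stretches of HBE1, 87.0% are shared in this way, so the assignment of its reads is uncertain too. The coding sequences of HBG1 and HBG2 differ at 2 of 444 bases. The stretch from coding base 197 (HBG2 at chr11:5254351-5254410 and HBG1 at chr11:5249427-5249486 of hg38, minus strand, in exons) shows 1 of these bases in capitals.
HBG2: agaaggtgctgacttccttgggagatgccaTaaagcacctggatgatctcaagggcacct
HBG1: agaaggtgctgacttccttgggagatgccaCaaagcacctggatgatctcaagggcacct
All 10 globin genes together took 0.968% and 0.975% of counts against 0.118%, 0.0749% and 0.0801%. This sum does not depend on how reads were split among globin genes, but it would depend on reads that were dropped for matching several genes, and whether both tables were counted alike in this respect is not given in the sources used here. The tested genes of the alpha cluster went the other way. HBA1, an adult alpha chain, was measured at 77.2 and 123 CPM against 399, 220 and 223 CPM, and HBA2, the other, at 42.9 and 69.8 CPM against 173, 96.97 and 110 CPM, with 82.3% and 82.4% of their stretches shared. With GC content offsets their differences of -1.49 and -1.17 turned to 0.22 and 0.52, and neither was called without AF9-experiment control replicate 1 (-1.19 and -0.86). HBZ, the embryonic zeta chain, was measured at 0.933 and 1.25 CPM against 3.29, 7.06 and 5.36 CPM, and HBQ1, the theta chain, at 1.01 and 2.23 CPM against 6.84, 12.0 and 13.97 CPM. With GC content offsets HBQ1 had a difference of -0.78 and was not called. Of the 9 globin genes tested 5 were higher and 4 lower, and with GC content offsets 5 were higher and 1 lower. Without AF9-experiment control replicate 1, 4 were higher and 2 lower.

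Genes of heme synthesis and of the red cell membrane were more often higher than all genes. Of 17 tested genes of heme synthesis and breakdown, 9 were higher and 1 lower (median log2 difference 0.61), and with GC content offsets 7 were higher and 0 lower. ALAS2, the first enzyme of heme synthesis in red cells, was measured at 177 and 176 CPM against 31.7, 39.1 and 32.3 CPM. CPOX, a later enzyme of the same path, was measured at 658 and 577 CPM against 75.4, 84.6 and 89.2 CPM, 7.44-fold higher (log2 difference 2.89 ± 0.12 (SE), adjusted p = 1.01e-05). UROD, another, differed by 2.14-fold, from 468 and 462 CPM to 265, 192 and 196 CPM. Neither ALAS2 nor CPOX had overlapping groups, like 79.1% of all genes tested. On the list of the red cell membrane 8 of 18 were higher and 2 lower (median 0.51), with GC content offsets 7 and 1, and without MLL1-experiment control replicate 1, 4 were lower. RHAG, which carries the Rh complex, was measured at 729 and 659 CPM against 113, 143 and 151 CPM, and RHCE, of the same complex, at 236 and 220 CPM against 57.9, 54.1 and 52.6 CPM. GYPC was not called, at 261 and 301 CPM against 362, 418 and 424 CPM (adjusted p = 0.00793, 1.43-fold lower). Of the 10 genes of the list with few shared stretches 2 were higher and 2 lower (median -0.18).

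Iron genes were split. Of 10 tested, 4 were higher and 3 lower, and with GC content offsets 1 was higher and 0 lower. With total counts 1 was higher and 3 lower, and leaving out any control library but MLL1-experiment control replicate 1 left 1 lower. FTL, the ferritin light chain, was measured at 1430 and 1561 CPM against 857, 899 and 888 CPM, and was not called with total counts (0.54). TFRC, the transferrin receptor, was not called, at 514 and 506 CPM against 467, 343 and 340 CPM.

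KLF1 and GATA1, which direct the red cell program, were not called. KLF1 activates globin and membrane genes and was measured at 103 and 105 CPM in the AF9-experiment controls and at 103, 121 and 116 CPM in the MLL1-experiment controls (log2 difference -0.12 ± 0.12 (SE), adjusted p = 0.389). GATA1 was measured at 194 and 228 CPM against 275, 288 and 293.4 CPM, 1.36-fold lower and under the fold threshold (adjusted p = 0.0117). Both genes are rich in GC (65.7% and 60.8%), and with GC content offsets KLF1 was called higher, at 1.48, and GATA1 had a difference of 0.52. Of 26 hematopoietic transcription factors tested, 2 were higher and 12 lower (46.2% lower, against 29.4% of all genes; median -0.57), and with GC content offsets 4 were higher and 13 lower. ZFPM1, the cofactor of GATA1 known as FOG-1, was measured at 1.17 and 1.78 CPM against 57.5, 99.0 and 99.6 CPM, 58.0-fold lower (log2 difference -5.86 ± 0.38 (SE), adjusted p = 2.89e-05). LYL1, a relative of TAL1, was measured at 35.3 and 47.5 CPM against 131, 238 and 219 CPM. GATA2 was measured at 530 and 615 CPM against 1135, 1709 and 1751 CPM, 2.67-fold lower (adjusted p = 0.000676), and with GC content offsets its difference was -0.41 and was not called. NFE2, which acts in red cells and megakaryocytes, was measured at 345 and 352 CPM against 555, 515 and 528 CPM, with a difference of -0.25 and no call under GC content offsets. GFI1, a repressor of the myeloid and stem cell programs, was one of the 2 members that were higher, at 8.09 and 4.81 CPM against 0.760, 1.77 and 1.37 CPM.

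**Figure D3:**
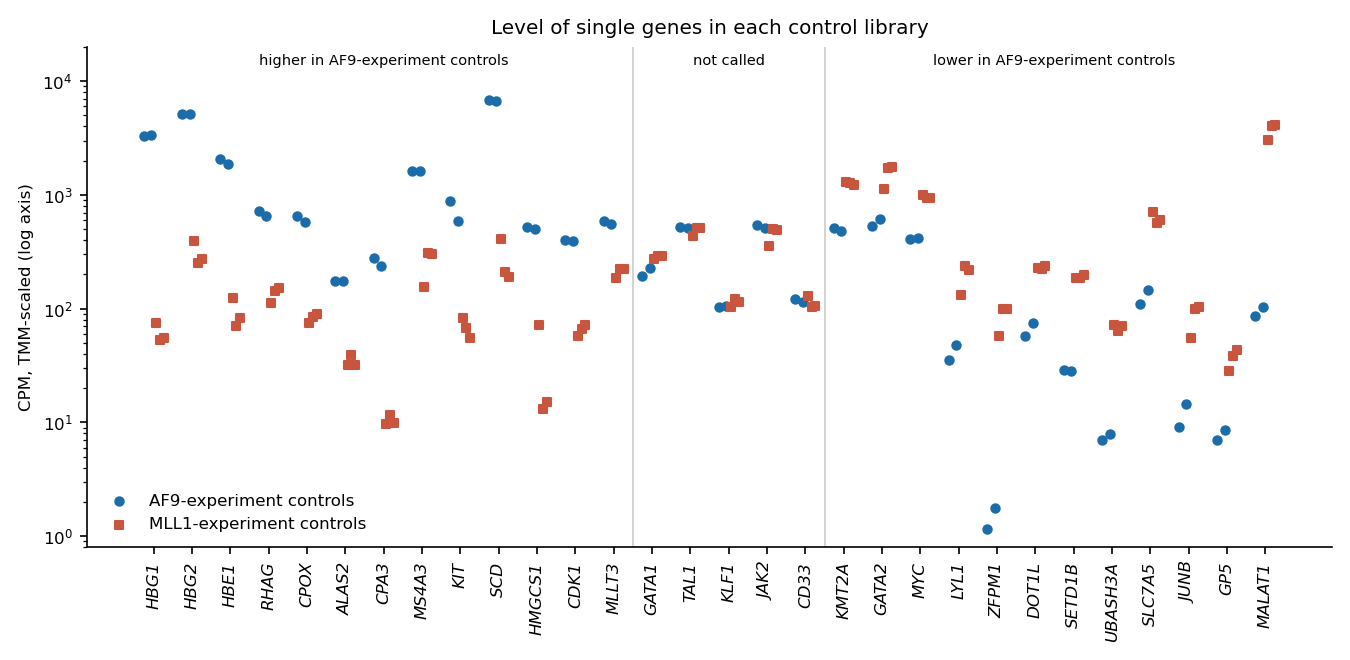
Level of 30 genes in every control library, in CPM scaled by TMM factors on a log axis; circles are AF9-experiment controls, squares are MLL1-experiment controls, and each point is 1 library. Among the 13 genes at the left HBG1, HBG2 and SCD stand highest in the AF9-experiment controls, the 5 genes in the middle were not called, and ZFPM1 and MALAT1 at the right show the widest gaps in the other direction.

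Megakaryocyte and platelet genes were more often lower. Of 16 tested, 2 were higher and 11 lower (median -1.26), and with GC content offsets 2 were higher and 10 lower. GP5, a subunit of the platelet receptor for von Willebrand factor, was measured at 7.0 and 8.64 CPM against 28.5, 38.7 and 43.0 CPM, 4.70-fold lower (log2 difference -2.23 ± 0.23 (SE), adjusted p = 0.000168). PF4, a chemokine of platelet granules, was measured at 1.09 and 1.25 CPM against 8.24, 5.70 and 3.99 CPM, and TREML1, a receptor in those granules, at 0.778 and 0.891 CPM against 4.94, 2.99 and 3.99 CPM. These 3 genes had no overlap between the groups, which held for 79.1% of all genes tested. ITGA2B, the alpha chain of the fibrinogen receptor, lay just under the fold threshold, at 871 and 1000 CPM against 1328, 1430 and 1418 CPM. PLEK, the main kinase C substrate of platelets, was higher, at 1656 and 1494 CPM against 651, 714 and 731 CPM.

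Genes listed as granule proteins of myeloid and mast cells, a list that also holds the surface receptor FCER1A, were more often higher. Of 13 tested 9 were higher and 2 lower (median 1.12), and with GC content offsets 7 were higher and 1 lower. CPA3, the carboxypeptidase of mast cell granules, was measured at 281 and 236 CPM against 9.76, 11.7 and 9.85 CPM, 24.8-fold higher (log2 difference 4.63 ± 0.15 (SE), adjusted p = 6.51e-06). MS4A3, a marker of granulocyte precursors, was measured at 1616 and 1611 CPM against 154, 311 and 305 CPM. SRGN, the proteoglycan that packs granules, was measured at 154 and 133 CPM against 28.3, 26.1 and 27.7 CPM. TPSAB1, a tryptase of mast cells, went the other way, at 3.03 and 3.74 CPM against 32.3, 31.8 and 33.6 CPM, and 81.3% of its stretches are shared with other genes. KIT, the receptor for stem cell factor and a surface gene, was measured at 886 and 594 CPM against 83.6, 67.5 and 55.6 CPM, 10.7-fold higher (adjusted p = 3.03e-05). Of 19 surface markers of leukemia and progenitors 7 (36.8%) were higher and 4 lower (median 0.16), and with GC content offsets 5 were higher and 4 lower. CD24 was measured at 61.5 and 69.5 CPM against 15.3, 19.0 and 17.3 CPM, and CD7 at 0.233 and 0.356 CPM against 5.45, 7.20 and 8.36 CPM. CSF2RB, the common beta chain of cytokine receptors, was not called, at 604 and 693 CPM against 562, 602 and 573 CPM.

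Signalling through JAK2 and its feedback was read from 16 genes. Of these 3 were higher and 6 lower, against 29.2% and 29.4% of all genes. SOCS1, a feedback inhibitor of JAK kinases, was measured at 0.622 and 0.802 CPM against 2.79, 11.4 and 12.0 CPM, and CISH, another, at 30.0 and 36.8 CPM against 84.0, 87.1 and 99.0 CPM. EPOR, the erythropoietin receptor, was measured at 14.3 and 13.5 CPM against 23.2, 44.3 and 40.7 CPM. With GC content offsets SOCS1 had a difference of -1.5 and EPOR of -0.50, and neither was called. With GC content offsets the split of the 16 turned to 6 higher and 3 lower. Immediate early genes, which answer growth signals and stress within minutes, had 0 higher and 10 lower of 16 tested (median -1.16), with 1 higher and 7 lower under GC content offsets and 6 lower without AF9-experiment control replicate 1. JUNB was measured at 9.10 and 14.5 CPM against 54.7, 99.7 and 102 CPM, and FOSL2 at 0.70 and 1.25 CPM against 10.4, 9.51 and 8.98 CPM. EGR1 was measured at 2.96 and 2.49 CPM against 5.96, 36.5 and 34.8 CPM, so that MLL1-experiment control replicate 1 lay far below its fellows. EGR1 was not called without AF9-experiment control replicate 1 (-3.36) or without replicate 2 (-3.12).

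Genes of sterol and fatty acid synthesis were more often higher, and in several of them MLL1-experiment control replicate 1 lay above its fellows. Cells switch these genes on through SREBP transcription factors when membrane sterols are low. Of 28 tested 17 were higher and 2 lower (60.7% higher, against 29.2% of all genes; median 1.51), and without MLL1-experiment control replicate 1, 23 were higher and 2 lower (median 2.06). With GC content offsets 22 were higher and 1 lower. Of the 19 with few shared stretches 9 were higher and 2 lower (median 0.83). SCD, which puts the double bond into stearate, was measured at 6894 and 6696 CPM against 408, 208 and 189 CPM, 25.3-fold higher (log2 difference 4.66 ± 0.33 (SE), adjusted p = 3.81e-05). HMGCS1, an early enzyme of cholesterol synthesis, was measured at 527 and 505 CPM against 72.5, 13.0 and 15.1 CPM, 15.4-fold higher (log2 difference 3.94, adjusted p = 0.00157). MSMO1, a later demethylating step, was measured at 190 and 179 CPM against 30.5, 8.56 and 6.73 CPM. SCD and MSMO1 are not among the genes with few shared stretches, while HMGCS1 is.

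Promoters of these genes were read from RefSeq sequence of GRCh38.p14, 250 bases before to 50 bases after the gene start, since SREBP acts with factors that bind CCAAT. RefSeq gave 22 of the promoters, and 17 of them hold CCAAT on either strand, compared with 37% of 10319 promoters of tested genes. The core of the sterol regulatory element, searched as TCACNCCAC on both strands, was found in 1 of the 22 (SREBF2) and in 1.05% of promoters of tested genes. CCAAT was also present in MVD, LSS, TM7SF2, DHCR7 and ACLY, which were not called. It was absent from IDI1 and CYP51A1, which were called higher, and from PMVK and ACACA, which were not called. SREBF1 was called lower and its promoter held neither motif. Matches are a description of these letters, not of bound sites, and whether they go with the calls was not tested. The promoters of HMGCS1 (chr5:43313363-43313662, minus strand) and SCD (chr10:100346983-100347282, plus strand) are shown as the 2 genes of the list with the widest gaps, with CCAAT or its reverse complement in capitals.
HMGCS1: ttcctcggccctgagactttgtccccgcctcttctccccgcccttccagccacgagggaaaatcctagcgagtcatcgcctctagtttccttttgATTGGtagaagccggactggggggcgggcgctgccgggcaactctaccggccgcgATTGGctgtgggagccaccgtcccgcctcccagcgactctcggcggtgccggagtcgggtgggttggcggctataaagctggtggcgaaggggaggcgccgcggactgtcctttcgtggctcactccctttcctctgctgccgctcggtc
SCD: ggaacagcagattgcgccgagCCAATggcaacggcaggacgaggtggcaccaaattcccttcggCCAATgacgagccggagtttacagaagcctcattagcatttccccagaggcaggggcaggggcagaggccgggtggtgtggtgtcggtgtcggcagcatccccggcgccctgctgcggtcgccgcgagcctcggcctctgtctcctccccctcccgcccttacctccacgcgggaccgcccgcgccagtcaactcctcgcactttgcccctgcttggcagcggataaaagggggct

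Energy metabolism and protein synthesis were shifted in many genes. Of 73 nuclear-encoded subunits of the respiratory chain 54 were higher and 6 lower (74% higher; median 1.55), and of the 25 with few shared stretches 16 were higher and 4 lower (median 1.57). NDUFA1, a subunit of complex I, was measured at 94.7 and 90.1 CPM against 7.60, 3.53 and 5.36 CPM, 16.7-fold higher (log2 difference 4.06 ± 0.25 (SE), adjusted p = 2.58e-05). COX6C, a subunit of cytochrome c oxidase, was measured at 269 and 272 CPM against 29.1, 23.6 and 25.4 CPM. ATP5F1B, a catalytic subunit of ATP synthase, was measured at 1842 and 1790 CPM against 915, 702 and 688 CPM. None of the 13 protein genes of the mitochondrial genome is listed in the joined tables. Of 79 cytoplasmic ribosomal proteins 56 were higher and 7 lower (median 1.09). RPS24 was measured at 1344 and 1425 CPM against 138, 141 and 141 CPM, and RPS6 at 5224 and 5387 CPM against 3858, 3507 and 3536 CPM, under the fold threshold. None of the 79 had at most 1% of shared stretches (median 41.8%), and how reads were split between them and their pseudogenes is uncertain.

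Of 31 genes of glycolysis and the response to low oxygen 18 were higher and 4 lower (median 0.77), and with GC content offsets 18 were higher and 2 lower. Without either AF9-experiment control or without MLL1-experiment control replicate 1, 2 were lower. ENO2, an enolase induced by hypoxia, was measured at 210 and 212 CPM against 43.2, 41.2 and 42.0 CPM, 5.01-fold higher (adjusted p = 1.16e-05), and P4HA1, a collagen prolyl hydroxylase induced in the same way, at 414 and 387 CPM against 54.5, 53.9 and 51.8 CPM. GAPDH was not called, at 2771 and 3006 CPM against 3985, 3440 and 3500 CPM. ALDOA, with 89.6% of its stretches shared with other genes, was measured at 1.17 and 2.85 CPM against 16.9, 17.4 and 16.1 CPM, low in both groups.

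Chaperones were more often higher as well. Of 19, 10 were higher and 1 lower (median 0.90), and with GC content offsets 11 were higher and 0 lower. Without AF9-experiment control replicate 1, 6 were higher. Among the 7 with few shared stretches 2 were higher and 0 lower, with a median of 0.01. HSP90B1, the HSP90 of the endoplasmic reticulum, was measured at 1305 and 1249 CPM against 372, 192 and 203 CPM. DNAJB9, a cochaperone there, was measured at 30.4 and 26.4 CPM against 4.56, 4.75 and 7.11 CPM. On the list of metallothioneins, which bind zinc, and of the zinc response, 5 of 8 genes tested were higher and 0 lower. The median was 2.48, or 1.80 with the member at the floor set to its bound, and 7 of the 8 had more than 1% of shared stretches. MT1X was measured at 114 and 130 CPM against 17.2, 15.5 and 15.7 CPM.

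Genes of the ATF4 stress response and serine synthesis went the other way. Of 20 tested 2 were higher and 12 lower (60% lower; median -0.78), and with GC content offsets 0 were higher and 9 lower. SLC7A5, a carrier of large amino acids, was measured at 109 and 145 CPM against 705, 572 and 605 CPM, 4.93-fold lower (log2 difference -2.30 ± 0.17 (SE), adjusted p = 4.34e-05). CHAC1, which breaks down glutathione, was measured at 8.56 and 12.6 CPM against 57.1, 84.7 and 81.3 CPM, and GDF15, a secreted stress factor, at 0.389 and 0.445 CPM against 7.60, 13.3 and 14.5 CPM. ATF4 itself was not called, at 473 and 504 CPM against 698, 540 and 556 CPM.

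Mitosis genes were the list with the highest share of higher members. Of 30 tested 23 were higher and 1 lower (76.7% higher, against 29.2% of all genes; median 1.13), and with GC content offsets 18 were higher and 1 lower (median 0.78). The median GC content of the list was 42.6%. CDK1, the kinase that starts mitosis, was measured at 402 and 394 CPM against 57.1, 66.7 and 72.5 CPM, 6.08-fold higher (log2 difference 2.60 ± 0.13 (SE), adjusted p = 1.35e-05). MAD2L1, of the spindle checkpoint, was measured at 236 and 215 CPM against 36.5, 36.4 and 32.2 CPM, and TOP2A, which untangles chromosomes, at 1849 and 1755 CPM against 529, 660 and 667 CPM. TPX2, which organizes the spindle, was not called, at 831 and 802 CPM against 943, 821 and 825 CPM. DNA replication genes were near the background in the higher direction, with 12 of 42 (28.6%) higher and 6 lower. PCNA, the replication clamp, was measured at 238 and 219 CPM against 157, 92.4 and 94.9 CPM and was not called without AF9-experiment control replicate 1 (0.93). CDT1, which licenses origins, was measured at 46.6 and 62.8 CPM against 217, 289 and 304 CPM. Its difference of -2.30 became -0.90 with GC content offsets and was still called.

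**Figure D4:**
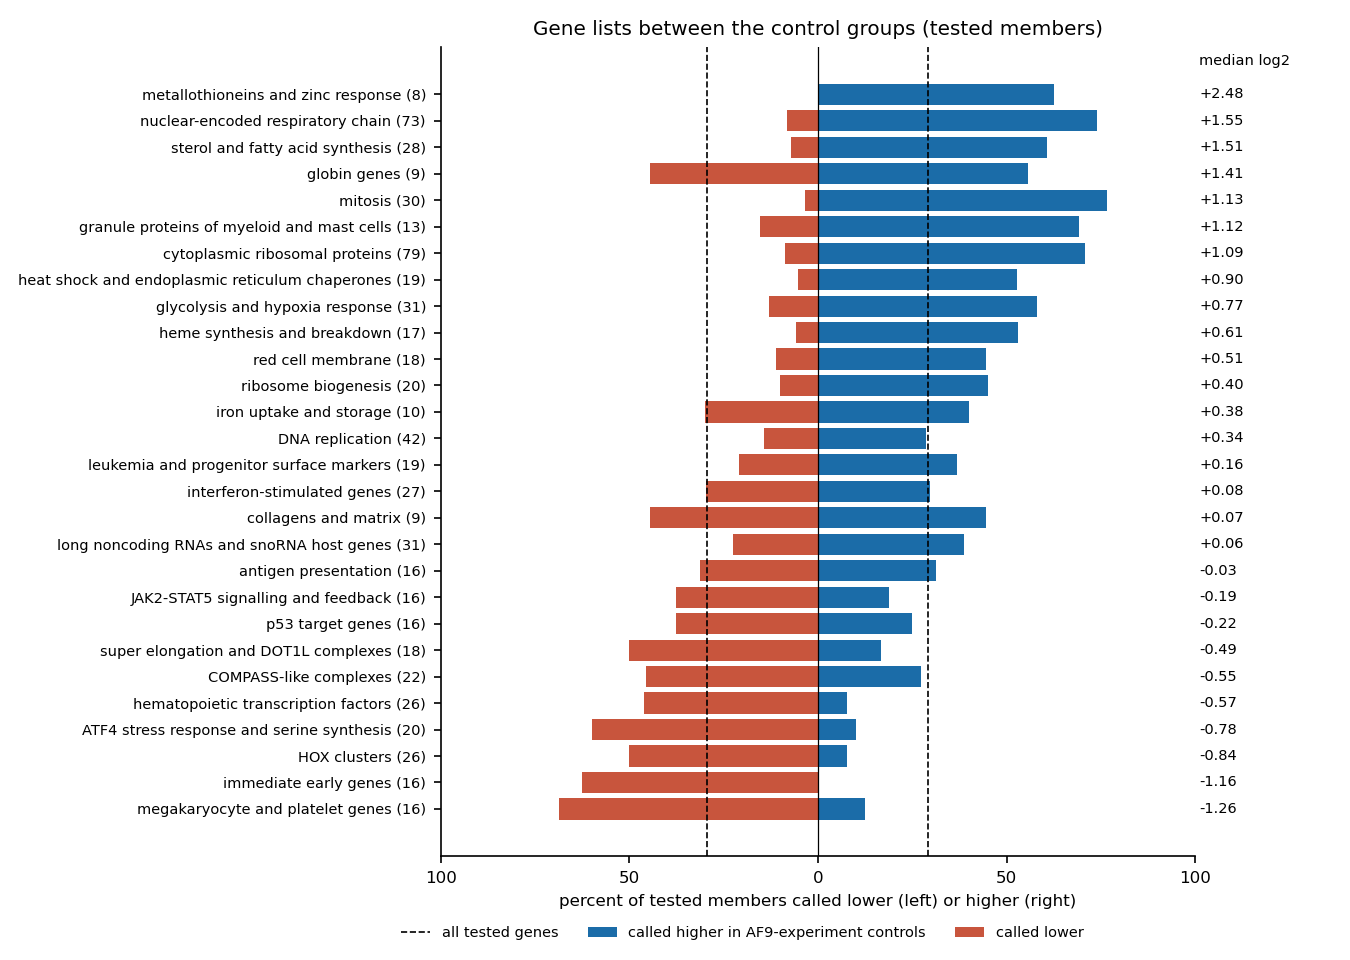
Percent of the tested members of each gene list that were called higher (blue, to the right) or lower (red, to the left) in the AF9-experiment controls, with the number tested in parentheses and the median log2 difference at the right. Dashed lines mark all tested genes, 29.2% higher and 29.4% lower. The lists of metallothioneins and zinc response, respiratory chain and sterol genes have the highest medians, and megakaryocyte genes the lowest, -1.26.

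Both genes knocked down in the study differed between the control groups. KMT2A, which encodes MLL1, was measured at 509 and 483 CPM in the AF9-experiment controls and at 1296, 1274 and 1230 CPM in the MLL1-experiment controls, 2.56-fold lower (log2 difference -1.35 ± 0.09 (SE), adjusted p = 3.62e-05). MLLT3, which encodes AF9, was measured at 587 and 559 CPM against 185, 222 and 223 CPM, 2.73-fold higher (log2 difference 1.45 ± 0.12 (SE), adjusted p = 6.28e-05). The groups were separate for both genes, as for 79.1% of all genes tested, and the directions were opposite. With GC content offsets the differences were -1.73 and 0.76.

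Of 18 genes tested on the list of the SEC and of DOT1L complexes, 3 were higher and 9 lower (median -0.49). With GC content offsets 2 were higher and 5 lower. DOT1L, the methyltransferase of histone H3 lysine 79, was measured at 58.1 and 74.5 CPM against 230, 222 and 240 CPM. Its difference of -1.80 became -0.59 with GC content offsets and was still called. MLLT1, which encodes the AF9 relative ENL, was measured at 67.1 and 78.0 CPM against 148, 180 and 169 CPM, and its difference of -1.19 turned to 0.16 with GC content offsets. CDK9, the kinase of the SEC, was measured at 37.3 and 46.3 CPM against 112, 78.5 and 83.3 CPM, and with the offsets its difference of -1.13 became -0.38 and was not called. LARP7, on the same list and part of a complex that holds that kinase inactive, was higher, at 73.9 and 71.1 CPM against 17.6, 14.4 and 13.3 CPM. Of 22 subunits of COMPASS-like complexes 6 were higher and 10 lower (median -0.55). SETD1B was measured at 28.9 and 28.5 CPM against 185, 187 and 196 CPM, and KMT2D at 229 and 251 CPM against 964, 885 and 873 CPM. PSIP1, which tethers MLL1 to chromatin, was higher, at 1676 and 1585 CPM against 524, 746 and 764 CPM, with 0.56 and no call under GC content offsets.

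MYC was measured at 407 and 415 CPM against 1005, 932 and 948 CPM, 2.34-fold lower (adjusted p = 5.57e-05). UBASH3A, a phosphatase-like protein of lymphocytes, was measured at 7.0 and 7.84 CPM against 72.2, 63.8 and 69.8 CPM, 9.25-fold lower (adjusted p = 1.32e-05). TSPAN32, a tetraspanin of blood cells, was measured at 17.7 and 21.8 CPM against 46.2, 65.7 and 60.6 CPM, and its difference of -1.54 was -0.16 with GC content offsets. GLUL, glutamine synthetase, was measured at 1513 and 1619 CPM against 1057, 821 and 863 CPM and was not called with total counts (0.56). ANXA1, an annexin of myeloid cells, was measured at 54.1 and 43.2 CPM against 9.50, 20.4 and 18.8 CPM. MEIS1, a partner of HOX proteins, was measured at 25.0 and 25.3 CPM against 75.4, 63.0 and 62.4 CPM. POLR2A, the largest subunit of RNA polymerase II, was measured at 531 and 525 CPM against 1092, 818 and 788 CPM, 1.70-fold lower (adjusted p = 0.00374), with -0.39 and no call under GC content offsets. HOXA9 did not pass the filter on low values.

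Of 26 HOX genes tested 2 were higher and 13 lower (median -0.84). Leaving out either AF9-experiment control left 8 lower, and GC content offsets left 7. HOXC10 was measured at 0.311 and 0.178 CPM against 6.59, 8.15 and 4.24 CPM. HOXB9, the HOX gene with the highest level per length, was measured at 169 and 167 CPM against 216, 349 and 344 CPM. Its call was lost with GC content offsets (-0.47), without AF9-experiment control replicate 1 (-0.86) and without replicate 2 (-0.84).

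Genes of antigen presentation and of the interferon response had no common direction. Of 16 antigen presentation genes 5 were higher and 5 lower. HLA-B was measured at 71.1 and 78.4 CPM against 8.11, 11.0 and 8.36 CPM. B2M, the shared light chain, was measured at 1596 and 1508 CPM against 634, 668 and 665 CPM. TAPBP, which loads peptides, was measured at 7.16 and 10.2 CPM against 85.8, 75.6 and 70.2 CPM. Of the stretches of HLA-B 15.5% are shared with other genes, so the split of reads between them is uncertain. Of 27 interferon-stimulated genes 8 were higher and 8 lower (median 0.08), with 5 lower without AF9-experiment control replicate 1. IFIT1 was measured at 6.85 and 5.52 CPM against 1.52, 1.22 and 0.374 CPM, and XAF1 at 1.32 and 1.43 CPM against 7.48, 17.7 and 13.97 CPM. Of 16 p53 targets 4 were higher and 6 lower, among them FAS, a death receptor, at 22.8 and 22.5 CPM against 4.18, 6.25 and 5.61 CPM, and CDKN1A, a cell cycle inhibitor, at 1.71 and 1.25 CPM against 7.86, 4.35 and 5.11 CPM. Of 20 ribosome biogenesis genes 9 were higher and 2 lower, and with GC content offsets 7 and 1.

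Several genes without near-identical copies were detected in nearly one control group alone. The same ranking restricted to protein-coding genes with at most 1% of shared stretches, a restriction chosen after the values were seen, named 12 genes at each end. GABRA6, a GABA receptor subunit, was measured at 18.5 and 20.8 CPM against 0, 0.272 and 0.125 CPM, at least 50.7-fold higher than the level of 3 counts per library. GABRB2, which lies beside it on chromosome 5, was measured at 23.6 and 20.5 CPM against 0.507, 1.09 and 0.125 CPM. ZEB1, a transcription factor that represses epithelial genes, was measured at 21.2 and 15.8 CPM against 0.507, 0 and 0.249 CPM. PASD1 was measured at 43.3 and 42.7 CPM against 0.887, 0.815 and 0.998 CPM, and ZDHHC2, a palmitoyltransferase, at 111 and 110 CPM against 1.65, 2.72 and 2.99 CPM. Other genes at this end were MLIP, TNFRSF19, FAM178B, DNAH8, UBXN10 and KCNAB1.

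At the other end COL6A1, a chain of collagen VI, was measured at 0 and 0.0891 CPM against 33.2, 46.5 and 39.4 CPM, at least 159-fold lower. ASB2, a ubiquitin ligase adaptor of blood cells, had no count in either AF9-experiment control and was measured at 8.36, 9.37 and 12.9 CPM in the MLL1-experiment controls, at least 40.7-fold lower. LGALS3BP, a secreted glycoprotein, was measured at 0.389 and 0.624 CPM against 31.6, 20.0 and 20.6 CPM, and ALOX5AP, which serves leukotriene synthesis, at 0.156 and 0.178 CPM against 6.46, 13.7 and 13.7 CPM. The others were WHRN, LRTM2, PTGER1, VASN, MARCH4, BPIFB3, ZNF462 and ZFPM1. Of 9 tested genes of collagens and matrix 4 were higher and 4 lower, and 2 were lower both with GC content offsets and without AF9-experiment control replicate 1. COL4A5, a basement membrane collagen, was measured at 9.88 and 8.996 CPM against 1.01, 1.63 and 0.873 CPM.

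The KD libraries of the same experiments, which share no library with the controls, were set beside them. There the knocked down gene differs as well as the experiment. Of 13654 genes 7077 (51.8%) were called between AF9 KD and MLL1 KD cells, 3526 (25.8%) higher and 3551 (26%) lower in AF9 KD. These calls came from a fit of all 10 RNA-seq libraries, so scaling and estimated spread rested in part on the controls. The genes tested were those that passed the filter in the controls. Fitted alone, the KD libraries gave 3288 higher and 3365 lower. Of the 3981 genes called higher in the AF9-experiment controls 3008 (75.6%) were also called higher in AF9 KD, and of the 4019 called lower 2969 (73.9%) were also called lower, while 14 were called in opposite directions and 2009 were not called. HBG1 differed by 5.77 on the log2 scale in the controls and by 5.51 in the KD cells, SCD by 4.66 and 4.82, CDK1 by 2.60 and 1.90, and ZFPM1 by -5.86 and -4.12. Mitosis genes numbered 11 higher and 2 lower of 30 in the KD cells, compared with 23 and 1 in the controls. For 132 genes the 2 differences themselves differed by the same thresholds. MLLT3, the target of the AF9 KD, differed by 1.45 in the controls and by -0.73 in the KD cells, and CD24 by 1.93 and -1.58.

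**Figure D5:**
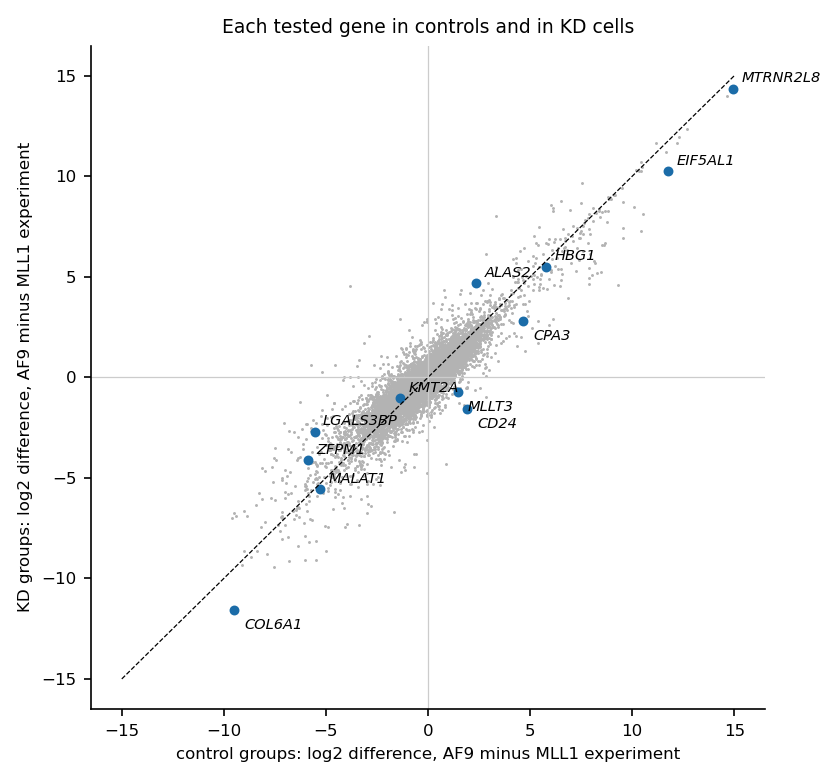
Each of the 13654 tested genes by its log2 difference between the control groups (horizontal axis) and between the KD groups (vertical axis), AF9 minus MLL1 experiment in both; the dashed line marks equal differences and 12 genes are named. Most genes lie along the line, MLLT3 and CD24 lie below it on the other side of 0, and the fitted values of genes at or near 0 counts in one group depend on the prior count.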

How the data were processed

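The authors trimmed reads with fastp 0.13.1, aligned them to hg38 with HISAT2 2.1.0 and counted them per gene with featureCounts 1.6.1, as the submitters' processing notes name these tools, and the deposited values are raw counts per gene symbol in 1 table per experiment. The tables were joined by symbol. Of 28103 symbols 92.3% matched the GENCODE annotation, directly or through an older symbol, and 98 histone genes and 2541 small noncoding RNA genes were left out. Genes were tested where their TPM averaged 1 or more (or their CPM, for genes of unknown length) with edgeR 4.0.16 (TMM factors, quasi-likelihood, Benjamini-Hochberg) in R 4.3.3 with 2 libraries against 3. Total counts were 7107257 to 14232408 per library. Standard errors and p values include the estimated spread between libraries, while the floors (3 counts per library) cover counting error only. The exact permutation test of 2 against 3 could not go below p = 0.2 and was not used. Shared stretches are 31-base stretches of a gene's Ensembl canonical transcript that occur, on the same strand, in any annotated transcript of another gene. Transcripts of overlapping genes count as well. GC content offsets were lowess fits (span 0.3) of each library against GC content. The scripts were tested on simulated data. DESeq2 1.42.0, other scalings, filters and thresholds, a block for replicate number and the leaving out of single libraries were tried as alternatives. Named genes were, by rule, the knocked-down genes and 11 others of interest to the study, the 12 largest and 12 smallest differences among called genes with at least 5 CPM in the higher group and no overlap between groups (readthrough and LOC symbols left out), up to 4 called members of each list with the largest differences and 2 with the highest TPM, the cell type markers and up to 5 genes with the highest TPM. Others, such as HBA1, HBA2, EIF5A and SREBF2, were chosen after their values were seen. The libraries, lists and tests were chosen with earlier results of these data known. Deposited files of other assays in the series were not used here.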

Additional observations from a re-analysis of the deposited data

Results flagged for a closer look

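For 8 genes named above the difference between the KD groups was itself different from the difference between the control groups, by an interaction term in an edgeR fit of all 10 libraries. The KD groups also differ in the gene that was knocked down, so these values do not concern the controls alone. On the log2 scale the KD difference minus the control difference was 2.32 for ALAS2 and 2.86 for LGALS3BP, -3.49 for CD24, -2.91 for GFI1, -2.16 for MLLT3, -1.81 for CPA3, -1.34 for MT1X and -0.71 for B2M. MLLT3 is the gene targeted in AF9 KD cells.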

How the results depend on the processing

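The control groups gave 2623 higher genes at a fold of at least 2. Among protein-coding genes with at most 1% of shared stretches, refitted alone, 1951 were higher and 1956 lower, and with GC content offsets as well 1577 and 1599; fewer genes were tested there, and both were chosen after seeing the data. The median distance between experiments was 1.45, compared with 0.495 within an experiment. At a mean TPM of at least 5 these were 1.39 and 0.391, and with GC content offsets 1.32 and 0.488, both also chosen after seeing the data. Smaller counts of list members (1 or 2) moved by 1 gene under several settings. Leaving out 1 control library gave 3152 to 4188 higher and 2896 to 4338 lower, and leaving out 1 KD library gave 2853 to 3862 higher and 2714 to 3771 lower; the lone AF9-experiment library was then assumed to vary like the other group. DESeq2 gave 3835 higher and 3990 lower. The replicate block gave 3988 higher and 3873 lower; replicates with the same number did not deviate together (correlations of 0.0101 and 0.00715), so the pairing is of numbers only.

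Directions turned for a few named genes. With GC content offsets the log2 difference became 0.31 for ATF4, -0.11 for CD33, 0.51 for GAPDH, 0.52 for GATA1, 0.22 for HBA1, 0.52 for HBA2, 0.34 for ITGA2B, -0.47 for JAK2, 1.48 for KLF1, 0.16 for MLLT1 and -0.06 for TFRC. In the restricted set with offsets it was 0.50 for GATA1, 0.32 for ITGA2B, -0.49 for JAK2, 1.44 for KLF1, 0.13 for MLLT1 and -0.06 for TFRC. With total counts it was -0.15 for CD33, -0.06 for CSF2RB, -0.01 for JAK2 and -0.13 for TAL1. The cause was not tested. With 2 libraries in one group, small differences of weakly expressed genes were not detectable.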

Other observations

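Of the 14 genes called in opposite directions between the control groups and between the KD groups, CD24 and MLLT3 are described above, and the others were BAMBI, CRIP1, EPSTI1, IQGAP2, MYCT1, RCN1, RHBDL3, SLC6A8, SORBS2, ST8SIA4, TMEM170B and TMEM205.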
